A study of Mus musculus with 56 samples.

Results

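Front paws of mice that had collagen-induced arthritis (CIA) and had received an antibody against interleukin 6 (IL-6) were set against front paws of mice labelled no CIA. The 2 groups were taken by their treatment label and held 13 anti-IL-6 libraries and 4 no CIA libraries, 17 of the 56 libraries of the series. In the anti-IL-6 paws, genes driven by the circadian clock were lower and their counterparts in antiphase were higher. Genes induced by interferons and genes of antigen presentation on MHC class I were also higher. None of these was called against paws of mice that had received a control antibody. Their calls against no CIA, 11 and 9 in the main fit, ranged over 0 to 24 and 0 to 15 in the other fits. IL-6 itself, its receptors and the target genes of its signalling pathway gave no gene past the threshold, although the RNA of Il6 was higher in each of the 13 anti-IL-6 paws than in any no CIA paw. Il6 and some of these targets did pass when libraries or groups were weighted or the index run entered the fit.

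IL-6 binds its receptor (Il6ra) and the shared signal transducer gp130 (Il6st), and the JAK kinases then activate the transcription factor STAT3, whose targets include the feedback inhibitor Socs3 and acute phase genes. The circadian clock is a feedback loop. The activators BMAL1 (Arntl) with CLOCK or NPAS2 switch on the Per and Cry genes, which repress them, the Nr1d nuclear receptors, which repress Arntl, and output regulators such as Dbp, Tef and Hlf. Interferons act on genes with an interferon-stimulated response element, and interferon gamma also raises MHC class I and II and guanylate-binding proteins.

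CIA is a mouse model of joint inflammation that follows immunisation with type II collagen of chicken cartilage, given here on days 1 and 21. All mice of the series were male and of the DBA/1 strain, and their age is not given. Mice of the anti-IL-6 group received the antibody clone MP5-20F3 at 10 mg/kg into the peritoneum, 2 times a week for 5 weeks from day 21, and 13 isotype mice received a control antibody at 30 mg/kg. Of the remaining mice, 13 are labelled anti-TNF (clone XT3.11 at 30 mg/kg) and 13 combination (both antibodies at these doses). Tissue for RNA was taken on day 91, which is 35 days after the end of the 5 weeks, so that by this schedule the paws were sampled after dosing had stopped. The labels give no level of remaining antibody, no time of day and no arthritis score. The 4 no CIA mice carry no dose in the labels. The titles number the mice, and anti-IL-6 replicate 2 is mouse 20, which lies among the anti-TNF numbers (15 to 27), while mouse 2, among the anti-IL-6 numbers (1 to 14), is labelled anti-TNF. The treatment labels were used as given.

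Each library holds RNA of a whole paw homogenate, so that skin, muscle, bone, cartilage, marrow and synovium are mixed. Levels are in FPKM, a fragment count scaled to transcript length and to library depth. Depth, read from the steps of low values, was 39.9 to 53.5 M fragments in the anti-IL-6 libraries and 43.9 to 49.4 M in the no CIA libraries. Markers of the tissues in a paw were present: the muscle actin Acta1 had 375 to 6808 FPKM in anti-IL-6 paws (median 1693) and 2310.2, 5521, 7945 and 5018 FPKM in no CIA paws, and the basal keratin Krt14 had 1098 to 3597 FPKM in anti-IL-6 paws (median 2457) and 3952, 3444, 2127 and 3052 FPKM in no CIA paws. Both groups overlapped for these genes. The index numbers in the titles were split into 5 runs, each starting where mouse numbers drop back along the index order. The labels name no such batch, and mouse numbers also drop within run 3. The anti-IL-6 libraries lie in runs 2, 4 and 5 and all no CIA libraries in run 1, so that no run holds both groups and run and group cannot be told apart within them. The anti-IL-6 replicates 6 and 13 had the lowest median correlation with the other libraries among all 56. The counts below include both unless a fit without them is named.

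Of 14515 genes with a mean of at least 1 FPKM in either group, 82 passed a limma adjusted p of 0.05, which is 0.565%. Of these, 59 were higher (0.406%) and 23 lower (0.158%) in anti-IL-6 paws, against 79 and 52 with median-of-ratios scaling. At an unadjusted p of 0.05, 3109 genes (21.4%) were higher and 1015 (6.99%) lower, and 61.8% of all tested genes had a difference above 0. The median log2 difference of all tested genes was 0.07, on the scale of log2(FPKM + 1) used for every difference here, which understates changes of genes with low values. The 2 groups did not overlap for 395 genes that were higher (2.72% of those tested) and for 23 that were lower (0.158%). Among the called genes, 51 of the 59 higher and 8 of the 23 lower ones were separated in this way. Of 48 gene lists, chosen with earlier results of these data known, 34 had no called member. Shares of list members called, here and below, are descriptions and were not tested. Leaving out 1 library gave 17 genes (without no CIA replicate 2) to 151 (without anti-IL-6 replicate 2, mouse 20), and leaving out both least correlated anti-IL-6 libraries gave 32. In bulk tissue, fewer cells of a type and less RNA per cell cannot be told apart.

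**Figure D1:**
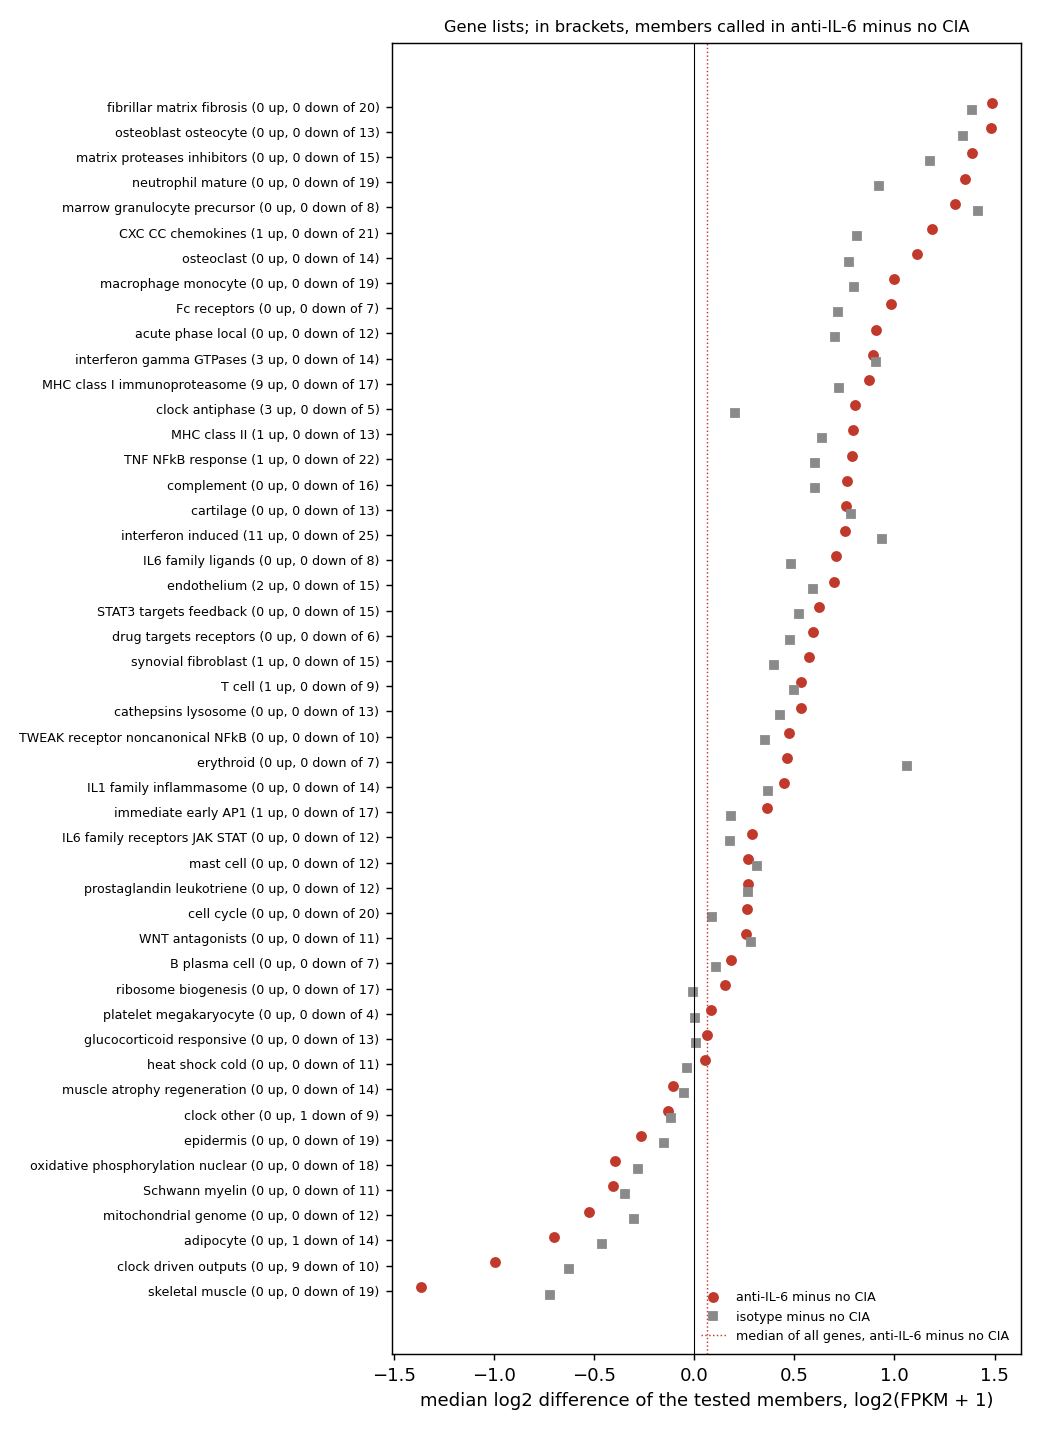
Median log2 difference, log2(FPKM + 1), of the tested members of each of 48 gene lists, for anti-IL-6 minus no CIA (circles) and isotype minus no CIA (squares); the dotted line is the median of all genes in anti-IL-6 minus no CIA, 0.07. Clock-driven outputs had 9 of 10 members called lower, interferon-induced genes 11 of 25 and MHC class I genes 9 of 17 called higher. Lists with larger medians such as fibrillar matrix had none called in the main fit, which depended on the fit. Both comparisons share the 4 no CIA libraries, and the lists were chosen with earlier results of these data known.

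The genes driven by the clock's activators fell together in anti-IL-6 paws: 9 of 10 members were called lower, against 0.158% of all genes, and the median difference of the 10 was -0.997. All 13 anti-IL-6 libraries had a lower mean over these genes than any no CIA library. Dbp, Tef and Hlf are related activators that bind D-box elements. Another group are repressors within the loop, namely Per2, Per3, Ciart, Bhlhe41, Nr1d1 and Nr1d2. The promoters of Ciart, a repressor of the BMAL1 complex, and of Per3 are shown because they carry the sequence elements by which such genes are known to be driven. In Ciart, on the minus strand at chr3:95882179-95882478, capitals mark the E-box CACGTG, which begins at positions -116, -58 and -44 from the transcription start. In Per3, on the minus strand at chr4:151044616-151044915, capitals mark the D-box TTATGTAA at -205 and -158, positions being the leftmost base of a match. Both are RefSeq promoters of GRCm38.p6, written 5′ to 3′ on the gene's strand from 250 bases before the start.
Ciart: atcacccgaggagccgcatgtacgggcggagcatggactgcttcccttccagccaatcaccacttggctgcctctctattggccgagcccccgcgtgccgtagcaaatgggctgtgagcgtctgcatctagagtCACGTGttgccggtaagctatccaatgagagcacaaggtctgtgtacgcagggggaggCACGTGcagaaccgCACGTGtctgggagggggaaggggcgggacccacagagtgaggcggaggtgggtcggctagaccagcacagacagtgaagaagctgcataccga
Per3: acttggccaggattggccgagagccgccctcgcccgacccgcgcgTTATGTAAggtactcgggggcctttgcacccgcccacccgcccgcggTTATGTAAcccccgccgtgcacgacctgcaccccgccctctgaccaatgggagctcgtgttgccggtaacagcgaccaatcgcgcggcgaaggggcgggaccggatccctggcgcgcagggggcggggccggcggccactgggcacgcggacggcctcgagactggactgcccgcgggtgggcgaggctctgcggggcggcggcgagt
Both strands were searched. The E-box was found in 7.15% of 32851 promoters. Counting any promoter of a gene, it was found in 8.09% of 27025 genes. By the same count it was found in 3 of the 8 called outputs with a promoter in the table (Tef, Ciart and Bhlhe41). TTATGTAA was found in 0.938% of promoters, 1.11% of genes and 1 of the 8, Per3. The related TTACGTAA was found in 0.119% of promoters, 0.126% of genes and none of the 8. A match describes the letters and is not a measured binding site.

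Dbp, which lies at chr7:45705088-45710203 (GRCm38), showed the largest drop of all called genes with 5.77 to 42.8 FPKM in anti-IL-6 paws (median 14.5) against 112, 145, 64.9 and 88 FPKM in no CIA paws. The 13 treated paws all lay below the 4 no CIA paws. Means were 18 ± 10.8 FPKM in anti-IL-6 paws (SD, n = 13) and 102 ± 34.3 FPKM in no CIA paws (SD, n = 4), and the log2 difference was -2.57 ± 0.361 (SE), limma adjusted p = 1.01e-05. Tef, which lies at chr15:81802421-81826863, had 14.5 to 42.6 FPKM in anti-IL-6 paws (median 21.7) against 66.5, 77.2, 53.2 and 63.9 FPKM in no CIA paws, again without overlap (-1.48 ± 0.177 (SE), limma adjusted p = 1.96e-07). Hlf, the least abundant of the family, had 1.11 to 5.04 FPKM in anti-IL-6 paws (median 2.79) and 6.58, 8.01, 4.43 and 7.88 FPKM in no CIA paws. Of its treated paws 11 lay below the no CIA range (-0.97 ± 0.172 (SE), limma adjusted p = 0.00083).

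Among the repressors, Per3 had 1.39 to 5.44 FPKM in anti-IL-6 paws (median 3.13) and 11.8, 13.6, 7.08 and 10 FPKM in no CIA paws, with no overlap (-1.45 ± 0.17 (SE), limma adjusted p = 1.96e-07). Ciart ranged over 1.78 to 9.86 FPKM in anti-IL-6 paws (median 5.03) and had 23.8, 23.5, 9.88 and 17.1 FPKM in no CIA paws. The highest treated paw, at 9.86 FPKM, stood next to the lowest no CIA paw, at 9.88 FPKM, so a narrow margin separated the groups (-1.56 ± 0.273 (SE), limma adjusted p = 0.000794). Bhlhe41, which competes for E-boxes, had 2.45 to 5.68 FPKM in anti-IL-6 paws (median 4.23) against 7.8, 8.78, 8.51 and 8.23 FPKM in no CIA paws (-0.90 ± 0.175 (SE), limma adjusted p = 0.00344). Nr1d2, a nuclear receptor that represses Arntl, had 4.79 to 13.5 FPKM in anti-IL-6 paws (median 7.54) against 14.5, 17.8, 14.7 and 17.5 FPKM in no CIA paws (-0.90 ± 0.157 (SE), limma adjusted p = 0.000794). Both were separated in all 13 paws. Its relative Nr1d1 spread more widely, over 22.3 to 104 FPKM in anti-IL-6 paws (median 65.3) against 113, 120.4, 105 and 95.7 FPKM in no CIA paws (-1.02 ± 0.246 (SE), limma adjusted p = 0.0339). Here 12 of 13 treated paws lay below the no CIA paws. Per2 had 0.804 to 3.03 FPKM in anti-IL-6 paws (median 1.4) and 3.23, 4.56, 2.33 and 5.69 FPKM in no CIA paws, 11 of 13 treated paws lying below (-0.95 ± 0.193 (SE), limma adjusted p = 0.00635). Per1, the member that was not called, had 9.3 to 24 FPKM in anti-IL-6 paws (median 12.3) and 17.4, 19.9, 10.3 and 17.6 FPKM in no CIA paws, with a difference of -0.31 and overlapping groups (limma adjusted p = 0.297). Of 9 further clock genes, 1 was called lower, the repressor Cry2 (-0.61, limma adjusted p = 0.022), against 0.158% of all genes.

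Genes whose peak falls opposite to these outputs were higher. Of 5 antiphase members, 3 were called, against 0.406% of all genes, and the median was 0.80. Npas2, the alternative partner of BMAL1, had 2.7 to 5.7 FPKM in anti-IL-6 paws (median 4.83) against 1.27, 0.946, 1.6 and 1.05 FPKM in no CIA paws. Its groups did not overlap (1.35 ± 0.183 (SE), limma adjusted p = 5.74e-06). Nfil3, a repressor that binds the same D-box as Dbp, had 8.98 to 26 FPKM in anti-IL-6 paws (median 12.7) against 8.07, 5.13, 7.62 and 6.95 FPKM in no CIA paws, also without overlap (0.95 ± 0.205 (SE), limma adjusted p = 0.0132). Arntl had 8.84 to 18.9 FPKM in anti-IL-6 paws (median 14.8) against 7.48, 6.05, 9.55 and 7.23 FPKM in no CIA paws, and 12 of 13 treated paws lay above all no CIA paws (0.80 ± 0.164 (SE), limma adjusted p = 0.00672). Clock and Cry1 were not called, with differences of 0.17 and 0.08. The element TAGGTCA, through which Nr1d receptors and their activating ROR relatives act, was found in 2.61% of promoters and 2.97% of genes. Among the 3 called genes it was found in a promoter of Arntl and of Nfil3.

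**Figure D2:**
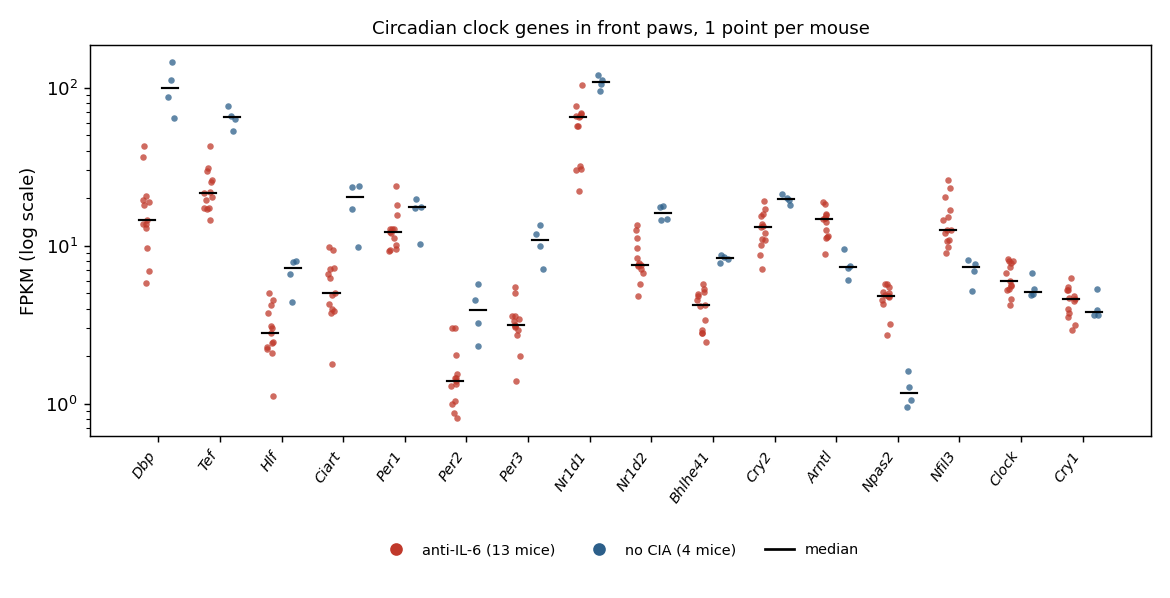
Level in FPKM (log axis) of 16 clock genes, 1 point per mouse, anti-IL-6 paws at the left and no CIA paws at the right of each gene, with the median as a bar. Dbp, Tef, Ciart, Per3, Nr1d2 and Bhlhe41 lie lower without overlap and Npas2 and Nfil3 lie higher without overlap, while Per1, Clock and Cry1 overlap.

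The isotype paws entered the same fit, which also gives the difference from arthritis under a control antibody. Comparisons of both groups with no CIA share the 4 no CIA libraries, so the direct difference was tested. Over the whole table, 139 genes (0.958%) separated the anti-IL-6 from the isotype paws, 108 higher (0.744%) and 31 lower (0.214%). Of the 10 clock outputs, 6 were called lower in anti-IL-6 than in isotype paws. Dbp had 5.77 to 42.8 FPKM in anti-IL-6 paws (median 14.5) and 35.6 to 118 FPKM in isotype paws (median 64.2), a difference of -1.90 ± 0.248 (SE), limma adjusted p = 5.58e-06. Of the antiphase genes 4 were called higher, including Cry1 (0.43, limma adjusted p = 0.00572). Per2 had a median of 1.40 FPKM in anti-IL-6 paws and 1.41 FPKM in isotype paws, a difference of 0.01 ± 0.132 (SE), limma adjusted p = 0.98. The median difference from no CIA over the 10 outputs was -0.997 in anti-IL-6 and -0.63 in isotype paws, and over the antiphase genes 0.80 and 0.20. The same medians were -0.93 and 0.50 in anti-TNF paws and -0.67 and 0.30 in combination paws, which received the same IL-6 antibody. Dbp averaged 18 ± 10.8 FPKM in anti-IL-6 paws, against 36.5 ± 15.4 FPKM in anti-TNF paws and 60.5 ± 28.6 FPKM in combination paws (SD, n = 13 each). The anti-IL-6 paws were lower than the combination paws (-1.73 ± 0.248 (SE), limma adjusted p = 4.53e-05), and the difference from anti-TNF paws did not pass (-1.05 ± 0.248 (SE), limma adjusted p = 0.35). In anti-TNF paws Dbp was itself lower than in no CIA paws (-1.52 ± 0.361 (SE), limma adjusted p = 0.0263).

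Leaving out a single library left 7 to 9 outputs called, and Dbp, Tef, Per3, Ciart, Hlf, Bhlhe41, Nr1d2 and Npas2 passed in all 17 such fits. Anti-IL-6 replicate 2 had the highest Dbp and Tef levels of its group, and without it 9 outputs and 3 antiphase genes were called, with a difference of -2.69 for Dbp and -1.56 for Tef. Nr1d1 did not pass without any one of the 4 no CIA libraries or of anti-IL-6 replicates 4, 6, 12 and 13, and Per2, Arntl and Nfil3 did not pass without no CIA replicate 2 or 4. A fit with the index run as a term, which rests on 2 isotype libraries that share run 1 with the no CIA libraries, called 8 outputs and 3 antiphase genes. A fit of the 2 groups alone called 5 and 2, one with the neutrophil score as a covariate 6 and 2, and one without the 2 least correlated libraries 8 and 3. Of 13 genes that respond to glucocorticoids, hormones with a daily rhythm, none was called (median 0.06), and Fkbp5 had 9.74 to 21.3 FPKM in anti-IL-6 paws (median 11.4) and 11.1, 12.8, 12.5 and 9.14 FPKM in no CIA paws, with overlapping groups and a difference of 0.06.

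Of the 48 lists, interferon-induced genes had the most members called higher. Of 25 tested members 11 were called higher, against 0.406% of all genes, and the median was 0.75. All 25 differences were above 0 (61.8% over all genes), and 16 members did not overlap between groups (2.72% over all genes). The called members cover antiviral enzymes (Oas1a, Oas2 and Oasl2), the ubiquitin-like modifier Isg15 and its protease Usp18, the nucleic acid sensors Ifih1 and Zbp1, and the membrane tether Bst2, as well as Rtp4, Xaf1 and Lgals3bp. The promoters of Isg15 and of Gbp3, a guanylate-binding protein that interferon gamma induces, are shown for their response elements. Capitals mark the response element, searched as GAAA, 2 bases of any kind and GAAA again (overlapping matches merged), which begins at -78, -72 and -66 in Isg15 (minus strand, chr4:156200769-156201068) and at -45 and -39 in Gbp3, on the opposite strand there (plus strand, chr3:142559794-142560093).
Isg15: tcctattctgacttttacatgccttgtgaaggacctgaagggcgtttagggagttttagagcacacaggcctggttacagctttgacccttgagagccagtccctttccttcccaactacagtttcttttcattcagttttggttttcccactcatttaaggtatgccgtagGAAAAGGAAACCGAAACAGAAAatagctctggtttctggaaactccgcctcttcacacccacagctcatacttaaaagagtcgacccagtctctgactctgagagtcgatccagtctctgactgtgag
Gbp3: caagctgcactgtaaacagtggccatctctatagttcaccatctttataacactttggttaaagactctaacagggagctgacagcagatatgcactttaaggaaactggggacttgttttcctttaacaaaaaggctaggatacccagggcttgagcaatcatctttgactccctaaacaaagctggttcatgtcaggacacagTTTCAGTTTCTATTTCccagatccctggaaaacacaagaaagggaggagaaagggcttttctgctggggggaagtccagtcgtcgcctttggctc
These are RefSeq promoters of GRCm38.p6 as above. A further promoter of Gbp3, at chr3:142560106-142560405, held no match. The element was found in 3.44% of all promoters and, counting any promoter of a gene, in 3.99% of genes. Among called genes with a promoter in the table it was found in 4 of 7 interferon-induced genes (Oas1a, Isg15, Ifih1 and Bst2), in Gbp2 and Gbp3, and in B2m as 1 of 8 MHC class I genes.

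Rtp4, a chaperone of membrane receptors, had 4.16 to 15.8 FPKM in anti-IL-6 paws (median 9.61) against 1.75, 2.62, 3.0 and 1.79 FPKM in no CIA paws. The lowest treated paw was above the highest no CIA paw, and the log2 difference was 1.56 ± 0.308 (SE), limma adjusted p = 0.00443. Oas1a had 1.29 to 9.6 FPKM in anti-IL-6 paws (median 3.89) against 0.468, 0.544, 0.614 and 0.58 FPKM in no CIA paws (1.61 ± 0.318 (SE), limma adjusted p = 0.00443). It passed in all 17 fits with a library removed, although reads of its close paralogs may be shared. Isg15, at chr4:156199424-156200818, had 6.18 to 14.2 FPKM in anti-IL-6 paws (median 10.4) against 3.24, 2.4, 3.4 and 2.27 FPKM in no CIA paws (1.48 ± 0.321 (SE), limma adjusted p = 0.0132). Oasl2 had 2.6 to 13.3 FPKM in anti-IL-6 paws (median 5.35) against 0.98, 1.52, 1.82 and 0.955 FPKM in no CIA paws (1.54 ± 0.332 (SE), limma adjusted p = 0.0127). Bst2, which holds budding virus at the cell surface, had 16.9 to 43.5 FPKM in anti-IL-6 paws (median 22.7) against 8.72, 9.78, 11.5 and 9.14 FPKM in no CIA paws (1.27 ± 0.283 (SE), limma adjusted p = 0.0183). None of these 5 genes overlapped between groups. Lgals3bp, a secreted glycoprotein, had 14.4 to 64.7 FPKM in anti-IL-6 paws (median 29.2) against 7.93, 9.56, 11.8 and 8.52 FPKM in no CIA paws (1.49 ± 0.335 (SE), limma adjusted p = 0.0214). The other called members differed by 0.43 (Ifih1) to 1.43 (Zbp1). Irf7, Mx1 and Ifit1, classical targets of the same pathway, were not called, with differences of 0.62, 0.52 and 0.78.

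MHC class I genes were higher too: 9 of 17 were called, against 0.406% of all genes, and the median difference was 0.88. Groups did not overlap for 14 of the 17, against 2.72% of all genes. B2m, the light chain common to all class I molecules, had 384 to 901 FPKM in anti-IL-6 paws (median 568) against 241, 255, 304 and 229 FPKM in no CIA paws. No treated paw reached down to the no CIA range (1.09 ± 0.218 (SE), limma adjusted p = 0.0049). Among heavy chains, H2-K1 had 153 to 389 FPKM in anti-IL-6 paws (median 230.2) against 113, 110.3, 119 and 96.9 FPKM in no CIA paws (1.03 ± 0.238 (SE), limma adjusted p = 0.0265). H2-D1 had 467 to 914 FPKM in anti-IL-6 paws (median 645) against 320.3, 337, 358 and 311 FPKM in no CIA paws (0.88 ± 0.203 (SE), limma adjusted p = 0.0265). The Q region genes H2-Q4, H2-Q6 and H2-Q7 differed by 1.05, 1.15 and 1.25 (limma adjusted p = 0.0118, 0.0168 and 0.0118). Heavy chains are near copies of each other, so their reads may be split between genes. Psmb8 and Psmb9, subunits of the immunoproteasome that cuts peptides for class I, differed by 1.04 and 1.03, and Nlrc5, the class I transactivator, by 0.89. The peptide transporter Tap1 was not called (0.61, limma adjusted p = 0.0823).

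Of 14 GTPases induced by interferon gamma, 3 were called higher, against 0.406% of all genes, and the median was 0.89. The count was 0 with a pseudocount of 10 and with the neutrophil score, 1 in the 2 groups alone, and 7 without anti-IL-6 replicate 2. Gbp3 had 3.72 to 11.4 FPKM in anti-IL-6 paws (median 6.2) against 2.29, 2.48, 3.2 and 1.98 FPKM in no CIA paws (1.07 ± 0.223 (SE), limma adjusted p = 0.00852). Iigp1, an immunity-related GTPase, had 2.52 to 16 FPKM in anti-IL-6 paws (median 3.74) against 0.96, 1.15, 1.66 and 1.17 FPKM in no CIA paws (1.39 ± 0.326 (SE), limma adjusted p = 0.0282), and Gbp2 differed by 0.95 (limma adjusted p = 0.0478). Groups did not overlap for these 3 genes. Iigp1 and Gbp2 did not pass without any one of the 4 no CIA libraries, nor Gbp3 without replicate 1, 2 or 4 of them, nor Gbp2 without anti-IL-6 replicate 3, 4, 6, 8, 11, 12 or 13. Of 13 MHC class II genes, 1 was called, against 0.406% of all genes, the peptide exchange subunit H2-DMb1 (1.05, limma adjusted p = 0.0429). All 13 differences were above 0 (61.8% over all genes), with a median of 0.79. The invariant chain Cd74 differed by 1.03 (limma adjusted p = 0.0726).

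**Figure D3:**
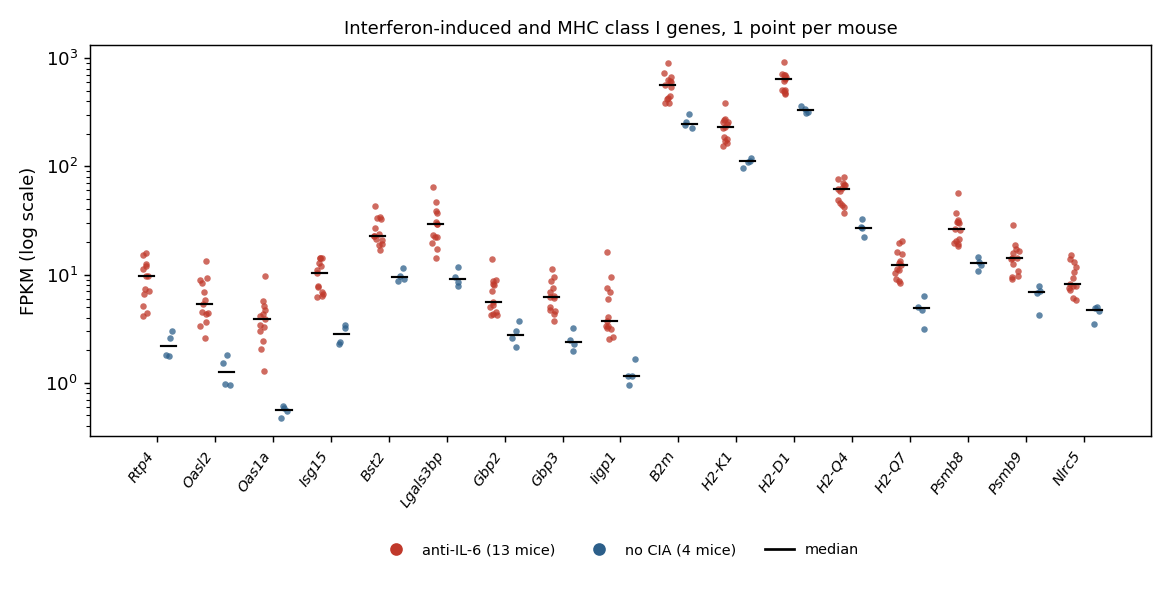
Level in FPKM (log axis) of 17 called interferon-induced, GTPase and MHC class I genes, 1 point per mouse, anti-IL-6 paws at the left and no CIA paws at the right of each gene, with the median as a bar. All 13 anti-IL-6 paws lie above the 4 no CIA paws for each gene shown.

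Against isotype paws, no member of the interferon, GTPase or class I lists was called. Rtp4 had a median of 9.61 FPKM in anti-IL-6 paws, against 5.93 to 30.8 FPKM in isotype paws (median 8.99), a difference of -0.19 ± 0.211 (SE), limma adjusted p = 0.746. The median difference from no CIA was 0.75 in anti-IL-6 and 0.94 in isotype paws for interferon-induced genes, and 0.88 and 0.72 for class I. Isotype paws had 12 and 2 members of the 2 lists called higher than the same no CIA libraries, against 0.152% of all genes. Macrophage markers also lay higher as values: 16 of 19 tested members were above 0 with a median of 1.00, none of them called in the main fit. Their summed level was 482 to 2659 FPKM in anti-IL-6 paws and 356 to 440.0 FPKM in no CIA paws, and no marker was at 0 throughout. Their part in the result was not tested. Without no CIA replicates 1 to 4 in turn, 3, 2, 6 and 1 interferon-induced and 2, 1, 5 and 0 class I genes were called, and leaving out an anti-IL-6 library left 7 to 13 and 9 to 11. With a pseudocount of 10 the counts were 0 and 4, and with the neutrophil score as a covariate both were 0. With muscle and epidermis scores they were 5 and 1, and without the 2 least correlated libraries, anti-IL-6 replicates 6 and 13, 5 and 3. With the index run as a term they were 24 and 6.

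The largest rise among all called genes with at least 5 FPKM was that of Spon2, a secreted matrix protein of the spondin family. It lies at chr5:33198184-33218455 and had 17.4 to 76.3 FPKM in anti-IL-6 paws (median 39.9) against 7.33, 5.3, 10 and 7.92 FPKM in no CIA paws. Every treated paw was above every no CIA paw (2.16 ± 0.389 (SE), limma adjusted p = 0.00111), and the call held in all 17 fits that left out a library. Plac8 had 6.12 to 53.6 FPKM in anti-IL-6 paws (median 9.9) against 1.97, 1.89, 2.4 and 1.98 FPKM in no CIA paws (2.09 ± 0.517 (SE), limma adjusted p = 0.041). Ccl8, a chemokine that draws monocytes, had 76.8 to 1556 FPKM in anti-IL-6 paws (median 150.5) against 70.7, 35.4, 52.5 and 35.8 FPKM in no CIA paws (1.92 ± 0.464 (SE), limma adjusted p = 0.0355). Its highest treated paw stood far above the others, but all 13 exceeded the no CIA paws. Ccl8 was the 1 called member of 21 chemokine genes, whose median was 1.19, against 0.406% of all genes called higher. Glipr2 had 7.31 to 37.3 FPKM in anti-IL-6 paws (median 9.51) against 3.85, 3.91, 4.38 and 3.79 FPKM in no CIA paws (1.40 ± 0.352 (SE), limma adjusted p = 0.0429). Spon2, Plac8, Ccl8 and Glipr2 differed from isotype paws by 0.87, 0.07, 0.31 and 0.47. None was called there (limma adjusted p = 0.0977, 0.956, 0.72 and 0.411). Calls of Plac8, Ccl8 and Glipr2 did not hold without any one of the 4 no CIA libraries or of anti-IL-6 replicates 4, 6, 8 and 12, nor, for Plac8 and Glipr2, of replicates 3 and 13.

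Among vessel genes, 2 of 15 were called higher, against 0.406% of all genes. Ackr1, a chemokine receptor of venules, had 16.1 to 26.9 FPKM in anti-IL-6 paws (median 20.7) against 13.4, 13, 14.4 and 9.79 FPKM in no CIA paws (0.70 ± 0.173 (SE), limma adjusted p = 0.041), and the adhesion molecule Icam1, also a member of the TNF response list, had 11 to 38.2 FPKM in anti-IL-6 paws (median 19) against 8.01, 8.18, 9.32 and 6.43 FPKM in no CIA paws (1.12 ± 0.288 (SE), limma adjusted p = 0.0488). Neither overlapped. Icam1 was the 1 called member of 22 genes of the TNF response, whose median was 0.79, against 0.406% of all genes called higher. Thy1, a surface protein of fibroblasts and T cells, differed by 1.01 (limma adjusted p = 0.0384). Fosl1, a subunit of the transcription factor AP-1, had 2.31 to 9.43 FPKM in anti-IL-6 paws (median 3.73) against 1.95, 1.84, 1.12 and 1.59 FPKM in no CIA paws (1.04 ± 0.262 (SE), limma adjusted p = 0.0441). It also differed from isotype, with a median of 3.73 FPKM in anti-IL-6 paws against 1.08 to 4.88 FPKM in isotype paws (median 1.59) (0.85 ± 0.18 (SE), limma adjusted p = 0.00944). Tnfrsf12a, the receptor of the cytokine TWEAK, differed from isotype paws (0.51 ± 0.095 (SE), limma adjusted p = 0.00331) and was not called against no CIA (0.34, limma adjusted p = 0.127). The calls of Ackr1, Icam1 and Fosl1 against no CIA did not hold without any one of the 4 no CIA libraries or of anti-IL-6 replicates 3, 4, 8, 12 and 13, nor without replicate 6 for Ackr1 and Icam1, 10 for Icam1 and 9 and 11 for Fosl1.

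Beside the clock genes, the largest drops among called genes with at least 5 FPKM were those of Pck1 and Dst. Pck1, an enzyme of gluconeogenesis that fat cells use for glycerol, had 0.793 to 4.55 FPKM in anti-IL-6 paws (median 1.68) against 3.5, 10.8, 5.87 and 3.57 FPKM in no CIA paws, with 12 of 13 treated paws below (-1.17 ± 0.297 (SE), limma adjusted p = 0.0457). It was the 1 called member of 14 adipocyte genes, against 0.158% of all genes called lower. All 14 were below 0, with a median of -0.70. The summed level of that list was 359.7 to 1017 FPKM in anti-IL-6 paws and 569 to 956 FPKM in no CIA paws. The call of Pck1 did not hold without any one of the 4 no CIA libraries or of anti-IL-6 replicates 3, 4, 6, 9, 12 and 13. Dst, a protein that links parts of the cytoskeleton, had 17.5 to 43.3 FPKM in anti-IL-6 paws (median 32.2) against 54.7, 62.9, 43.9 and 49 FPKM in no CIA paws, without overlap (-0.78 ± 0.163 (SE), limma adjusted p = 0.00852). It did not pass without no CIA replicate 1 or 2. Pck1 and Dst differed from isotype paws by -0.48 and -0.35 and were not called there (limma adjusted p = 0.279 and 0.109).

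The pathway that the antibody acts on gave no call in this fit. Il6 had 0.142 to 15.8 FPKM in anti-IL-6 paws (median 1.98) against 0.0227, 0.0235, 0 and 0.141 FPKM in no CIA paws. All 13 treated paws were above the no CIA paws, but they spread over a wide range. The difference was 1.65 ± 0.60 (SE), limma adjusted p = 0.116. That SE rests on an estimate of the gene's spread that all groups share. Over the 6 antibody target and receptor genes, the median SD in log2(FPKM + 1) was 0.439 in anti-IL-6 and 0.0986 in no CIA paws. Il6ra, the ligand-binding receptor chain, had 3.64 to 7.66 FPKM in anti-IL-6 paws (median 5.31) and 5.42, 5.35, 4.57 and 5.47 FPKM in no CIA paws, with overlapping groups (0.01 ± 0.128 (SE), limma adjusted p = 0.969). Il6st had 21.1 to 56.5 FPKM in anti-IL-6 paws (median 27.2) and 17.4, 21.3, 24.6 and 19.3 FPKM in no CIA paws, 10 of 13 treated paws lying above (0.56 ± 0.197 (SE), limma adjusted p = 0.114). For tumour necrosis factor and its receptors, the differences were 0.62 for Tnf, 0.45 for Tnfrsf1a and 1.01 for Tnfrsf1b, with limma adjusted p = 0.126, 0.117 and 0.129. Tnfrsf1b had 2.77 to 28.1 FPKM in anti-IL-6 paws (median 4.72) against 2.2, 2.62, 2.7 and 2.6 FPKM in no CIA paws, without overlap.

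None of 8 tested ligands of the IL-6 family was called, and their median was 0.71. Osm and Lif, cytokines that share gp130, differed by 0.90 and 0.81. None of 12 receptor and JAK-STAT genes was called (median 0.29), Stat3 differing by 0.46. Of 15 target and feedback genes of STAT3 none was called, although all 15 differences were above 0 (median 0.62). Socs3 had 12 to 128 FPKM in anti-IL-6 paws (median 29.2) against 10.2, 10.9, 11.7 and 10 FPKM in no CIA paws. All treated paws were above the no CIA range, by a narrow margin in the lowest (1.56 ± 0.447 (SE), limma adjusted p = 0.0805). Of 12 acute phase genes none was called (median 0.91). Saa3, an acute phase protein made in inflamed tissue, had a wide range, 3.85 to 1400.5 FPKM in anti-IL-6 paws (median 62.2) against 1.38, 0.897, 0.507 and 0.401 FPKM in no CIA paws (4.71 ± 1.44 (SE), limma adjusted p = 0.0945). Lcn2, an iron-sequestering protein, differed by 2.11 and the complement protein C3 by 1.25 (limma adjusted p = 0.11 and 0.0849). Over the 15 STAT3 genes the median difference from no CIA was 0.62 in anti-IL-6 and 0.52 in isotype paws. No drug target, STAT3 or acute phase gene was called between those 2 groups. The absence of calls against no CIA depended on the fit. Il6, Il6st, Socs3, Saa3 and C3 were called higher with a weight per library, with a weight per group and with the index run as a term, fits that called 4156, 1024 and 1628 genes in all. For Il6 the differences were 1.31, 1.65 and 3.46 (limma adjusted p = 0.0213, 0.0495 and 0.0387). Tnfrsf1b passed with library weights and with the index run, and Tnf and Tnfrsf1a with library weights. Socs3 also passed without anti-IL-6 replicate 2 (1.66, limma adjusted p = 0.0464).

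Lists of neutrophil, macrophage, fibrillar matrix, matrix protease, osteoblast and osteoclast genes had larger medians than the interferon genes and no called member in the main fit. That fit estimates each gene's spread over all groups together, although these genes varied less in no CIA paws. For neutrophil genes the median was 1.35, and the calgranulin S100a8 had 17 to 485 FPKM in anti-IL-6 paws (median 132) against 7.69, 16.2, 21.4 and 18.7 FPKM in no CIA paws (2.81 ± 0.915 (SE), limma adjusted p = 0.109). Of the treated paws 10 lay above the no CIA paws. The median was 1.49 for fibrillar matrix, 1.48 for osteoblast, 1.39 for matrix protease and 1.11 for osteoclast genes. Mmp3, a protease of synovial fibroblasts, had 14.5 to 1693 FPKM in anti-IL-6 paws (median 119.5) against 7.21, 6.66, 9.71 and 8.73 FPKM in no CIA paws, without overlap (3.67 ± 1.2 (SE), limma adjusted p = 0.109). The collagen chain Col1a1 had 169 to 3246 FPKM in anti-IL-6 paws (median 1326) against 179, 241, 290.1 and 199.6 FPKM in no CIA paws (2.10 ± 0.764 (SE), limma adjusted p = 0.115), with 12 paws above and 1 below the no CIA range. Differences were 3.37 for the collagenase Mmp13, 1.71 for the osteoclast phosphatase Acp5, 2.13 for osteocalcin (Bglap), 2.65 for the cartilage collagen Col2a1 and 1.08 for the macrophage marker Cd68. The absence of calls for these genes depended on the fit. Mmp3 and Cd68 were called higher with a weight per library, with a weight per group and with the index run as a term. Those fits called 4156, 1024 and 1628 genes in all. S100a8 was called with both weights, and Col1a1, Mmp13 and Acp5 with library weights alone. Bglap and Col2a1 were called in none of the fits tried. Skeletal muscle genes were lower as values, with 19 of 19 below 0 and a median of -1.37, none called in the main fit. Muscle creatine kinase Ckm had 118 to 2761 FPKM in anti-IL-6 paws (median 754) and 672, 1849.5, 3147 and 1911 FPKM in no CIA paws, and 6 treated paws lay below all no CIA paws. Medians were -0.40 for nuclear genes of oxidative phosphorylation and for Schwann cell genes, and -0.27 for epidermis.

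Mice of the anti-IL-6 group differed more among themselves than the no CIA mice did. The median SD of a gene, in log2(FPKM + 1), was 0.218 in anti-IL-6 and 0.163 in no CIA paws over all genes, and 70.4% of genes had the larger SD in anti-IL-6 paws. For neutrophil genes the median SDs were 1.29 and 0.137. For cell cycle genes, only 5% had the larger SD in anti-IL-6 paws. The proliferation marker Mki67 had 12.6 to 18.8 FPKM in anti-IL-6 paws (median 16) against 18.8, 14.4, 10.1 and 13.4 FPKM in no CIA paws, a difference of 0.20. Mean levels of the neutrophil list ran from 1.56 to 4.93 on the log2 scale in anti-IL-6 paws and from 1.40 to 1.58 in no CIA paws. Of the 13 anti-IL-6 paws, 12 lay above all no CIA paws and 1 within their range.

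**Figure D4:**
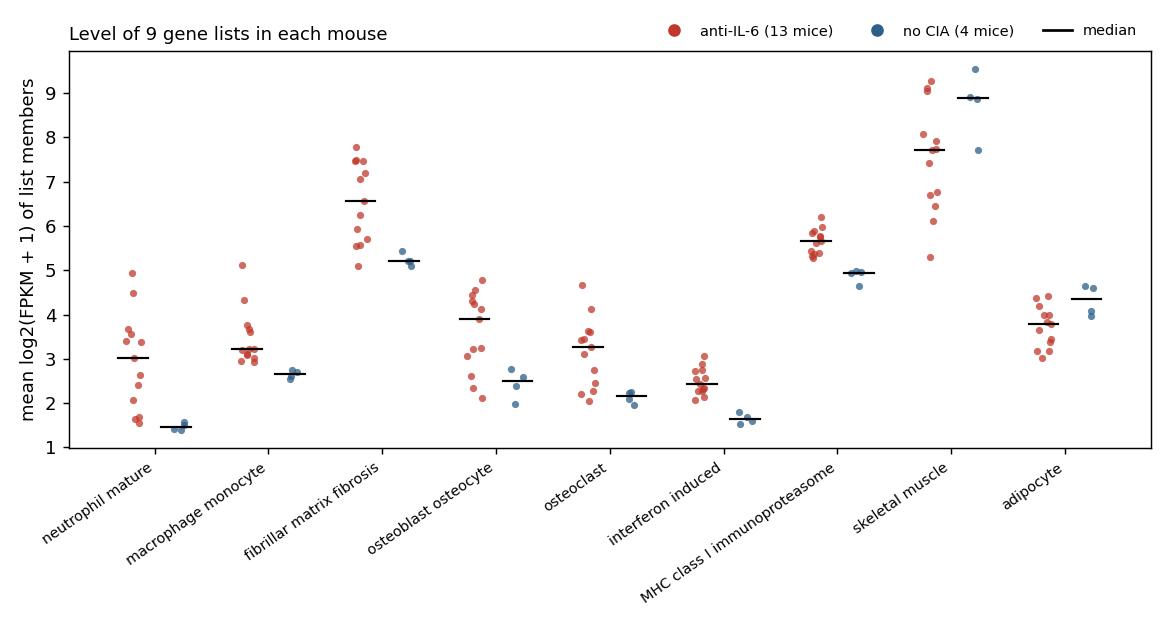
Mean log2(FPKM + 1) of 9 gene lists, 1 point per mouse, anti-IL-6 paws at the left and no CIA paws at the right of each list, with the median as a bar. Neutrophil, matrix and bone lists spread widely over the anti-IL-6 paws, and their lowest paws reach the no CIA range. For neutrophil and fibrillar matrix genes, 12 of 13 anti-IL-6 paws lie above all no CIA paws. The same holds for 11 with osteoclast and 10 with osteoblast genes. The interferon-induced list (2.08 to 3.06 against 1.53 to 1.79), the class I list (5.27 to 6.20 against 4.65 to 4.99) and the macrophage list (2.93 to 5.13 against 2.54 to 2.74) do not reach that range.

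Within the 13 anti-IL-6 paws, the level of Il6 was set against 7 genes, with a permutation test of 100000 resamples, two-sided, adjusted over the 7 relations. Mice with more Il6 RNA had more RNA of the protease Mmp3 (Pearson r = 0.937, Spearman rho = 0.901, adjusted permutation p = 3.5e-05 and 0.000163). For Saa3, r was 0.903 and rho 0.890 (adjusted permutation p = 3.5e-05 and 0.000163). For Socs3, r was 0.904 and rho 0.901 (adjusted permutation p = 4.67e-05 and 0.000163). The matrix gene Col1a1 followed with r = 0.854 and rho = 0.874 (adjusted permutation p = 0.00098 and 0.000437), and S100a8 with r = 0.642 and rho = 0.659 (adjusted permutation p = 0.0296 and 0.0238). Without the 2 paws farthest from the median of Il6, replicates 4 and 13, r was 0.949, 0.907, 0.916, 0.878 and 0.747 for Mmp3, Saa3, Socs3, Col1a1 and S100a8. Within index run 4, which holds 8 of the mice, r was 0.936, 0.900, 0.905, 0.822 and 0.669 in the same order.

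For Rtp4 and Dbp, taken from the called groups, no relation with Il6 passed the threshold. For Rtp4, r was 0.338 and rho 0.363 (adjusted permutation p = 0.254 and 0.261). Without the 2 farthest paws r was 0.618 (unadjusted permutation p = 0.0449), and within run 4 it was 0.418. For Dbp, r was -0.364 and rho -0.203 (adjusted permutation p = 0.254 and 0.506), with r = 0.05 without the 2 farthest paws and -0.719 within run 4. Whether the relation of Il6 with Rtp4 or Dbp differs from that with Mmp3 was not tested.

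**Figure D5:**
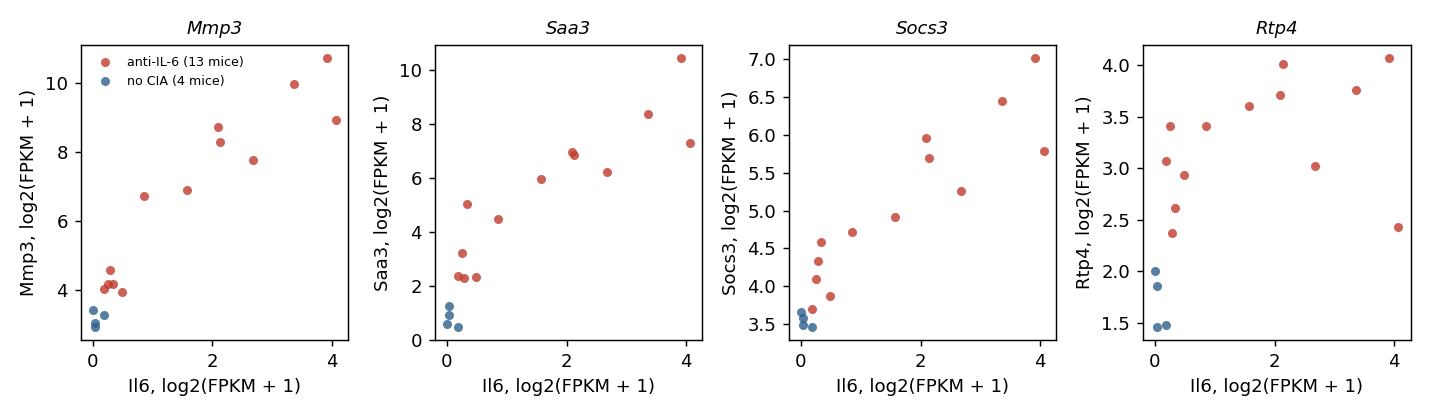
Level of Mmp3, Saa3, Socs3 and Rtp4 (vertical axes) against Il6 (horizontal axis), all in log2(FPKM + 1), 1 point per mouse for 13 anti-IL-6 and 4 no CIA paws. Within the anti-IL-6 paws Mmp3, Saa3 and Socs3 rise along Il6 (r = 0.937, 0.903 and 0.904), and for Rtp4 r is 0.338.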

How the data were processed

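The labels' protocols name a Qiagen kit for total RNA, stranded Illumina mRNA libraries and paired-end NovaSeq reads. The authors deposited 1 table of FPKM values, a unit read from the values because no header states it, with 53431 features and 1 column per library. The submitters' processing notes name DESeq2. No source used here gives the aligner, the annotation, the build or the strand setting. Symbols were found for 52207 of 52244 Ensembl identifiers, and coordinates are those of GENCODE M21 (GRCm38) for the 51027 identifiers that matched with their version. Whole counts could not be rebuilt: 77% to 83.7% of low values of single-exon genes were whole multiples of 1 fragment, within 0.05 of a step. No 2 libraries held identical values.

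Groups follow the treatment labels, also for 2 mice (20 and 2) whose numbers lie outside those of their groups. A single limma model (version 3.58.1, R 4.3.3; robust prior with a trend) of log2(FPKM + 1) covered all 56 libraries, each group having its own mean, which left 51 residual degrees of freedom. The spread of each gene was estimated over all groups together, also where the no CIA paws varied less. Genes with a mean of at least 1 FPKM in the anti-IL-6 or the no CIA group were tested, two-sided. Benjamini-Hochberg adjustment covered all of them, with a threshold of 0.05. The fit was tested on simulated data that gave each gene the same spread in all groups. That setting is unlike these data, where 70.4% of genes had the larger SD in anti-IL-6 than in no CIA paws. The simulation could therefore not test the shared estimate of spread. The genes named are the 6 members of the list of antibody targets with their receptors, 10 genes at each end of the differences among called genes with at least 5 FPKM, up to 3 called members of each list with at least 2 called and a share above that of all genes, and a set of anchor genes. The remaining called or uncalled list members mentioned were chosen after their values were seen. The members and the 48 lists were chosen with earlier results of these data known. Lists are described by counts and medians, with no test. Alternatives were pseudocounts of 0.1 and 10, other filters, priors, weights, scaling and covariates, the 2 groups alone, and leaving out libraries. Reads of paralogs (Oas, Gbp, H2 genes) and of overlapping or antisense genes may have been shared. The correlations used scipy 1.17.1 and the figures matplotlib 3.10.9 (Python 3.11.15).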

Additional observations from a re-analysis of the deposited data

Results flagged for a closer look

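The following genes were called in the direct contrast of anti-IL-6 with isotype paws (limma, adjusted over 14515 genes), so that their difference from no CIA was not alike in both. Of the clock outputs, the log2 difference of anti-IL-6 from isotype was -1.90 for Dbp (limma adjusted p = 5.58e-06), -0.86 for Tef (limma adjusted p = 2.14e-05), -0.77 for Per3 (limma adjusted p = 6.93e-05), -0.84 for Nr1d1 (limma adjusted p = 0.00676), -0.64 for Bhlhe41 (limma adjusted p = 0.00331) and -0.73 for Nr1d2 (limma adjusted p = 4.99e-05). In antiphase it was 0.67 for Npas2 (limma adjusted p = 0.00331), 0.46 for Arntl (limma adjusted p = 0.0251) and 0.74 for Nfil3 (limma adjusted p = 0.00331). Further genes were Fosl1, with a difference of 0.85 (limma adjusted p = 0.00944), and Tnfrsf12a, the receptor of TWEAK, with 0.51 (limma adjusted p = 0.00331). The time of day of collection is not given in the labels.

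For 2 genes, 1 of the 4 no CIA paws, a different one for each gene, stood apart by Dixon's test, which flags about 1 in 20 groups by chance. For Il6 it was replicate 4, the highest at 0.141 FPKM, and for Il6ra replicate 3, the lowest at 4.57 FPKM.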

How the results depend on the processing

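The 82 called genes kept their direction in every setting tried except the clock score as a covariate, where 75 did. How many were called moved with the setting. The count was 145 with a pseudocount of 0.1 and 30 with 10, 37 when the fit held the 2 groups and no others, 4156 with library weights, 1024 with group weights, and 1628 with the index run as a term, which rests on 2 isotype libraries. It was 131 with median-of-ratios scaling (79 higher and 52 lower, against 59 and 23), which put the median of all genes at -0.0033 in place of 0.0652. It was 31 once scores of muscle and epidermis entered the fit and 17 with the neutrophil score. With the clock score it was 0 by limma, with 163 genes at an unadjusted p of 0.05; that score is made of the clock genes themselves. Without filter, 81 were called, 50 of them among the 82. Leaving out 1 library gave 17 to 151 genes: 31, 17, 39 and 18 without no CIA replicates 1 to 4, and 151, 51, 143, 50, 49, 46 and 48 without anti-IL-6 replicates 2, 4, 5, 6, 8, 12 and 13. Without replicates 6 and 13 together it was 32 (16 higher and 16 lower). The causes were not tested.

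Values that changed sign were as follows. With the clock score, differences from no CIA were -0.17 for Il6, -0.0817 for Il6st, -0.0531 for Il6ra, -0.34 for Tnfrsf1b, 0.12 for Dbp, 0.17 for Ciart, 0.40 for Nr1d1, 0.0331 for Nr1d2, -0.29 for Nfil3, -0.0360 for C3, -0.0509 for Cd68, 0.43 for Krt14 and -0.17 for Fkbp5. Those from isotype were 0.0460 for Nr1d1, -0.0218 for Npas2 and -0.0267 for Nfil3. With the neutrophil score they were -0.0939 for Tnfrsf1b, 0.00603 for Krt14, -0.0992 for Il6ra and -0.0898 for Fkbp5. Il6ra, near 0 throughout, was at -0.0221 with a weight per library, -0.0587 with median-of-ratios scaling, -0.0681 with muscle and epidermis scores and -0.0422 to 0.0442 when 1 library was left out. Fkbp5 was at -0.0391, -0.0113 and -0.0574 in the same 3 fits, -0.00579 without the 2 least correlated libraries and -0.0293 to 0.12 when 1 library was left out. The correlation of Il6 with Dbp was 0.0454 without the 2 farthest paws.

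No paired analysis was possible because the labels give no replicate numbers shared between groups. The 4 no CIA libraries limit the precision, and their run and group cannot be told apart. Depth was estimated for each library, but whole counts could not be rebuilt, and no counting interval was given.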

Other observations

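Of the 82 called genes 39 stood in none of the lists, 27 higher and 12 lower in anti-IL-6 paws. The following genes of this remainder were chosen after their values were seen. Several higher ones are known as targets or parts of the interferon pathway. Irf9, the DNA-binding subunit of the interferon-activated complex, had 12.6 to 23.2 FPKM in anti-IL-6 paws (median 16.8) against 11.1, 10, 9.96 and 9.3 FPKM in no CIA paws (0.68 ± 0.159 (SE), limma adjusted p = 0.028). Ifitm3, which blocks viral entry, had 256 to 729 FPKM in anti-IL-6 paws (median 349.9) against 210.3, 206, 201 and 165 FPKM in no CIA paws (0.83 ± 0.209 (SE), limma adjusted p = 0.0429). Uba7, the activating enzyme for Isg15, differed by 0.86, the GTPase Ifi47 by 1.13 and the class I gene H2-M3 by 0.78 (limma adjusted p = 0.041, 0.022 and 0.041). Groups did not overlap for these 5 genes.

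Of the lower ones, Cipc, which binds CLOCK and inhibits its activity, had 8.85 to 14.1 FPKM in anti-IL-6 paws (median 11.4) against 15.6, 17.2, 13.8 and 15.8 FPKM in no CIA paws, with 12 of 13 treated paws below (-0.45 ± 0.0768 (SE), limma adjusted p = 0.000579). It also differed from isotype paws (-0.22 ± 0.0527 (SE), limma adjusted p = 0.0246). Hdac11, a histone deacetylase, had 2.63 to 7.05 FPKM in anti-IL-6 paws (median 4.83) against 9.59, 10.1, 6.74 and 7.19 FPKM in no CIA paws (-0.68 ± 0.12 (SE), limma adjusted p = 0.00083), and the taurine transporter Slc6a6 had 26.7 to 41.9 FPKM in anti-IL-6 paws (median 35.5) against 58.6, 57.1, 38 and 52.6 FPKM in no CIA paws (-0.54 ± 0.111 (SE), limma adjusted p = 0.00784). Leo1, a subunit of the PAF1 elongation complex, was higher without overlap, at 13.8 to 17.7 FPKM in anti-IL-6 paws (median 15.4) against 10.9, 9.26, 11.3 and 11.8 FPKM in no CIA paws (0.50 ± 0.0718 (SE), limma adjusted p = 1.71e-05).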
